A study of Mus musculus with 9 samples.

Results

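The genes described here are 10 members of the mouse Cyp2c family, Cyp2c55, Cyp2c65, Cyp2c66, Cyp2c68, Cyp2c29, Cyp2c38, Cyp2c39, Cyp2c40, Cyp2c67 and Cyp2c69. Each is the row of the deposited RNA-seq table whose symbol equals that name, and the table lists 54146 genes in all. Genes were tested where at least 4 mice reached a normalized count of 10, which held for 6 of the 10 members and for 14410 genes of the table. The colonic mucosa came from 9 C57BL/6J mice at 15 wk of age, 5 with the genotype ApcMin/+ (2 females and 3 males) and 4 with the genotype ApcMin/+; p16cis/cis (3 females and 1 male). All 9 mice thus carried the Min mutation of Apc on 1 of the alleles, a germline mutation that starts intestinal adenomas. The ApcMin/+; p16cis/cis mice carried in addition a knock-in element on both p16 alleles that draws DNA methylation to the p16 promoter, and being a germline allele it is not limited to the colon. Each mouse gave 1 library, the methods name colonic crypts as the source of the RNA, and mice with neither allele were not analyzed here.

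Cyp2c genes encode cytochrome P450 monooxygenases of the endoplasmic reticulum, which hold a heme group and take electrons from the reductase encoded by Por. They hydroxylate drugs and steroids, mostly in the liver, and they oxidize arachidonic acid to hydroxyeicosatetraenoic acids and to epoxyeicosatrienoic acids, signaling lipids of which the latter are broken down by epoxide hydrolases. CYP2C55 is known as an arachidonic acid monooxygenase that is abundant in the mouse colon, and CYP2C65 and CYP2C66 are known as enzymes of the gastrointestinal tract.

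The family lies in a cluster on chromosome 19 of GRCm38, which in the GENCODE M21 annotation runs from 38976647 to 40187333 and holds 16 Cyp2c genes and pseudogenes. The first 3 protein-coding Cyp2c genes, all on the plus strand, are Cyp2c55 (ENSMUSG00000025002.5) from 39007019 to 39042693, Cyp2c65 (ENSMUSG00000067231.4) from 39061015 to 39093944 and Cyp2c66 (ENSMUSG00000067229.3) from 39113898 to 39187072. Next come Cyp2c29, Cyp2c38 and Cyp2c39, and then Cyp2c67, Cyp2c68, Cyp2c40 and Cyp2c69 on the minus strand. Cyp2c68 (ENSMUSG00000074882.3) lies from 39688834 to 39741054 and Cyp2c69 (ENSMUSG00000092008.1) from 39842814 to 39886799.

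The coding sequences are shown because they bear on how well reads can tell the members apart. Printed here, 5′ to 3′ on the coding strand, is the stretch of 60 coding bases that spans the junction of exons 8 and 9 and encodes the cysteine that binds the heme iron, with capitals for bases unlike Cyp2c55. In Cyp2c55 it lies at chr19:39038217-39038241 and chr19:39042017-39042051, in Cyp2c65 at chr19:39090745-39090769 and chr19:39093323-39093357, and in Cyp2c66 at chr19:39183909-39183933 and chr19:39186449-39186483 of GRCm38. On the minus strand it lies at chr19:39699261-39699285 and chr19:39689219-39689253 in Cyp2c68, and at chr19:39849346-39849370 and chr19:39843042-39843076 in Cyp2c69.
Cyp2c55: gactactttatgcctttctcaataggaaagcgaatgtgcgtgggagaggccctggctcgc
Cyp2c65: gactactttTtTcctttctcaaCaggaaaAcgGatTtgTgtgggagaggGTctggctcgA
Cyp2c66: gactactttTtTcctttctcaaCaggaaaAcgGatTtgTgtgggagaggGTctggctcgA
Cyp2c68: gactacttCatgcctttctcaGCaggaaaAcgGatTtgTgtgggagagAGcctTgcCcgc
Cyp2c69: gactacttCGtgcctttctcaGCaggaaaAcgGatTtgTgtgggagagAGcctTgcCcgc
Cyp2c65 and Cyp2c66 carry the same letters here and differ from Cyp2c55 at 10 of the 60 bases, while Cyp2c68 differs from Cyp2c55 at 11 and Cyp2c69 at 12. Over whole coding sequences Cyp2c55 shared 72.3% (with Cyp2c69) to 77.4% (with Cyp2c29) of aligned bases with the other members. Cyp2c65 and Cyp2c66 shared 96.3%, and Cyp2c68 shared 96.5% with Cyp2c69, 97.2% (1431 of 1473 bases) with Cyp2c67 and 98.1% with Cyp2c40. Of all windows of 50 bases in the annotated transcripts, 1.13% of those of Cyp2c55 also occurred in another gene, against 20.6% for Cyp2c65 and 19.5% for Cyp2c66. The share was 43.3% for Cyp2c68, 52.8% for Cyp2c67, 54.3% for Cyp2c69 and 60.3% for Cyp2c40. With windows of 100 bases the shares were 0% for Cyp2c55, 7.82% for Cyp2c65, 7.35% for Cyp2c66 and 19.8% for Cyp2c68. By exact windows of these 2 lengths the sequence of Cyp2c55 was almost wholly its own. The read length is not given in the sources used here, and mapping that allows mismatches was not examined. Values within the Cyp2c65 and Cyp2c66 pair are uncertain as far as the counting could split reads between copies. The same holds within the group of Cyp2c67, Cyp2c68, Cyp2c69 and Cyp2c40.

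The members that fell are neighbors in the cluster, so their promoters are printed beside that of Cyp2c68, whose level did not separate the genotypes. Each run goes from 250 bases before to 50 bases after the RefSeq start site in GRCm38.p6, 5′ to 3′ on the strand of the gene. The windows are chr19:39006769-39007068, chr19:39060756-39061055 and chr19:39113648-39113947 on the plus strand and chr19:39741052-39741351 on the minus strand. Capitals mark exact matches, on either strand, to the nuclear receptor core letters AGGTCA and AGTTCA, the GATA letters AGATAA, the CDX letters TTTATG, the letters GTTAAT and the TATA box letters TATAAA.
Cyp2c55: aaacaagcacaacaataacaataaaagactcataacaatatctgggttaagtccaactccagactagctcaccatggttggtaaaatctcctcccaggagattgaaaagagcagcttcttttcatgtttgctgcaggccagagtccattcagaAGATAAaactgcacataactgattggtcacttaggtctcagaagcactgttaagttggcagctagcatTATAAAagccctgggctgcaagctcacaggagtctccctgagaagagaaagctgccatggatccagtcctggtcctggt
Cyp2c65: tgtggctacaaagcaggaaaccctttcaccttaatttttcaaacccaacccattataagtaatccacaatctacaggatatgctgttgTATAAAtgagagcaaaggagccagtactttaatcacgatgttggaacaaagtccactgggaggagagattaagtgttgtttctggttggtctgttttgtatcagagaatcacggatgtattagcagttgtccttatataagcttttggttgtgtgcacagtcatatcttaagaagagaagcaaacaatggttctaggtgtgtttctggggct
Cyp2c66: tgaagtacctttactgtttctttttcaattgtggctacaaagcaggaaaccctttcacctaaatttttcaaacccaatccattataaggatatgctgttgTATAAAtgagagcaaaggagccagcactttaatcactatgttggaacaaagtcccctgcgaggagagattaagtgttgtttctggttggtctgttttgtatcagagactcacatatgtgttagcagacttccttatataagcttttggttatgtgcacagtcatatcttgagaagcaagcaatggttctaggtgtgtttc
Cyp2c68: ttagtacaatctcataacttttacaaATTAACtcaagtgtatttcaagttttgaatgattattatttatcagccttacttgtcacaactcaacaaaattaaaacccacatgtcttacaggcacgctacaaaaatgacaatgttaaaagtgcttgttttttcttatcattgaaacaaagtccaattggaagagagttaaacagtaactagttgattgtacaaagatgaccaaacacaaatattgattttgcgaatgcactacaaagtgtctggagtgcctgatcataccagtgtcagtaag
The windows of Cyp2c65 and Cyp2c66 shared 94.5% of aligned bases, and those of Cyp2c55 and Cyp2c65 shared 59.1%. Cyp2c55 alone of the 4 held AGATAA, starting 97 bases before the start site, and its TATAAA started 29 bases before it. In Cyp2c65 and Cyp2c66 TATAAA began 162 and 150 bases before the start site. Nearer the start site both windows hold the letters tatataa, which an exact search for TATAAA does not match, so these positions do not place their TATA box. Cyp2c68 held GTTAAT on the opposite strand, 224 bases before its start. Neither nuclear receptor core was found in these 4 windows, while AGGTCA or AGTTCA was found in windows of Cyp2c29, Cyp2c39, Cyp2c40 and Cyp2c69. Among 32817 RefSeq promoters of the same length, 16.3% held AGGTCA, 14.0% AGTTCA, 11.2% AGATAA, 11.9% TTTATG, 7.10% GTTAAT and 13.6% TATAAA. A direct repeat of these cores with 1, 3 or 4 bases between them was found in no member, and in 0.0823%, 0.0122% and 0.0274% of all promoters.

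In the mucosa of ApcMin/+ mice the levels per length of the members spanned several orders of magnitude. Cyp2c55 had 11032 normalized counts per kb of exon (range 7685 to 16995, n = 5), above Cyp2c65 with 2608 (2280 to 3300) and Cyp2c68 with 511 (247 to 875). Cyp2c66 had 83.0 (33.3 to 148) and Cyp2c69 had 69.3 (17.9 to 144), and these 2 neighbors in the order overlapped between mice. Cyp2c67 had 4.46 (1.65 to 8.81) and Cyp2c40 had 1.90 (0 to 5.62), also with overlap. Cyp2c29, Cyp2c38 and Cyp2c39 were near the floor of detection. Cyp2c29, the main constitutive Cyp2c of liver, and Cyp2c39, known as a retinoic acid hydroxylase, were listed at 0 in all 9 mice, and Cyp2c38 had 1 read in 1 ApcMin/+; p16cis/cis mouse. A count of 0 allows up to 3 reads, which in these libraries is a normalized count of 2.85 to 4.79, and this covers counting error only. In ApcMin/+; p16cis/cis mice the order was the same down to Cyp2c68, with 3470 per kb for Cyp2c55 (2670 to 4308, n = 4), 847 for Cyp2c65 (621 to 1067) and 467 for Cyp2c68 (365 to 688), the ranges of Cyp2c65 and Cyp2c68 now overlapping. Below them Cyp2c69 had 44.8 per kb (31.8 to 70.2) and stood above Cyp2c66 with 13.9 (3.22 to 20.5) in every mouse.

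The libraries held 13523500 to 17885918 reads on genes. Mitochondrially encoded genes took 8.74 to 15.6% of the reads in ApcMin/+ and 19.3 to 29.8% in ApcMin/+; p16cis/cis mice. Markers of cell types were read against the 1.64% of all genes tested that were called lower and the 1.83% called higher, by limma at a Benjamini-Hochberg adjusted p under 0.05 and a fold change over 2. Of 12 marker genes of surface colonocytes, the differentiated cells at the lumen, 2 were called lower, Slc26a3 (log2 fold change -1.23) and Clca4a (-1.15), and 0 higher. At an unadjusted p under 0.05 there were 3 lower and 0 higher (limma). The summed level of the 12 was 230847 to 494346 in ApcMin/+ and 247182 to 370194 in ApcMin/+; p16cis/cis mice. Its largest parts were Lypd8 (mean 154085 in ApcMin/+ and 191414 in ApcMin/+; p16cis/cis mice) and Car1 (92501 and 51029). The 7 markers of the crypt base and of cycling cells summed to 5409 to 9016 and to 9067 to 11899, without overlap, with 0 called in either direction by limma (3 higher and 0 lower at an unadjusted p under 0.05). Mki67, the largest part of that sum, was higher without overlap but under the 2-fold threshold (0.92, Benjamini-Hochberg adjusted p = 0.00656 from limma). Its means were 2332 in ApcMin/+ and 4436 in ApcMin/+; p16cis/cis mice. Of the markers of other cells, 1 of 7 for goblet cells was called higher (Spink4, 1.41) and 1 of 4 for enteroendocrine cells lower (Chgb, -1.11), and 0 of 3 for tuft cells was called (0 at an unadjusted p under 0.05, limma). At that unadjusted threshold 2 goblet cell markers were higher and 1 lower (Zg16, -0.89). Of the enteroendocrine markers 2 were lower and 1 higher (Pyy, 0.88) by the same measure. Also called lower were 1 of 7 for lymphocytes and plasma cells (Jchain, -2.65, summed level 90.3 to 1789 against 259 to 445), 1 of 3 for myeloid cells (Lyz2, -1.56, 82.6 to 164 against 52.6 to 64.6), 1 of 6 for stroma and vessels (Col3a1, -2.92, 229 to 608 against 152 to 300) and 1 of 3 for red blood cells (Alas2, -3.34, 852 to 5390 against 245 to 3088). Of the liver markers Serpina1a and Cyp7a1 were listed at 0 in all mice and 1 of 3 tested was called higher (Apoa2, 1.10). Of 3 tested small intestine markers 2 were called lower, Sis (-3.05) and Alpi (-1.60), while Fabp6 overlapped between the genotypes and was not called (-0.43). The colon position genes Hoxb13, Hoxa13 and Hoxd13 were present in every group, and 0 of the 3 was called. Hoxb13 (0.44) and Hoxd13 (0.76) were higher, and 0 lower, at an unadjusted p under 0.05 (limma). The part of these differences in the results for the Cyp2c genes was not tested.

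The first comparison asked which Cyp2c genes differed in the mucosa when p16 epimutation was added to the Apc mutation. Cyp2c55, Cyp2c65 and Cyp2c66, the 3 genes at one end of the cluster, were each lower in all 4 ApcMin/+; p16cis/cis mice than in any of the 5 ApcMin/+ mice. Cyp2c68, Cyp2c69 and Cyp2c67 overlapped between the genotypes. Of the 6 tested members 3 were called lower by limma under the same rule, against 1.64% of all genes tested called lower and 1.83% called higher. edgeR and DESeq2 also called 3 members lower, against 1.84% and 1.44% of the genes they tested. None of the 6 was called higher by limma or by DESeq2 (0.989% of its genes), nor any of the 5 that passed the filter of edgeR (1.71% of its genes), which left out Cyp2c67. In limma 0 were higher at an unadjusted p under 0.05. In bulk mucosa fewer cells of a type that expresses a gene and less RNA of it per cell cannot be told apart.

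Cyp2c55 had normalized counts of 16063, 15332, 26601, 33905 and 18142 in ApcMin/+ replicates 1 to 5 and of 7279, 8595, 6492 and 5326 in ApcMin/+; p16cis/cis replicates 1 to 4. The highest ApcMin/+; p16cis/cis mouse was thus below the lowest ApcMin/+ mouse. Replicates 3 and 4 of ApcMin/+, both male, were the highest, and replicate 2, also male, was the lowest of that genotype. The change was 3.07-fold (95% confidence interval of the log2 fold change -2.13 to -1.11, limma). In Cyp2c65 the normalized counts were 4395, 4501, 5454, 6363 and 4425 in ApcMin/+ mice, and with p16cis/cis they were 1350, 1927, 2057 and 1197. Relative to its mean its spread between ApcMin/+ mice was the smallest of the 3, and the genotypes did not overlap. Its level fell 3.12-fold (log2 fold change -1.64 ± 0.18, standard error; limma, Benjamini-Hochberg adjusted p = 0.00102). With Bonferroni adjustment over all genes tested Cyp2c65 alone of the members passed (adjusted p = 0.00944 from limma), as 0.104% of the genes did in the lower direction, against 0.236 for Cyp2c55.

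Cyp2c66 was measured at a far lower level, with 64.7, 128, 215, 287 and 112 normalized counts in ApcMin/+ mice and 29.0, 39.9, 33.1 and 6.27 in ApcMin/+; p16cis/cis mice. The lowest of these values rests on 4 reads, and the groups did not overlap. It fell by 2.61 ± 0.53 (standard error) on the log2 scale (limma, Benjamini-Hochberg adjusted p = 0.00909), a 6.09-fold fall on the log2(normalized count + 1) scale, which understates the change of low genes. Of the 50-base windows of Cyp2c66, 19.5% occurred in Cyp2c65, which had 23168 reads in ApcMin/+ mice against 738 for Cyp2c66. The values of Cyp2c65 and Cyp2c66 may therefore share reads and are not independent. In exact two-sided permutation tests of single genes over every split of the mice into 5 and 4, p was 0.00794 for each of Cyp2c55, Cyp2c65 and Cyp2c66, the smallest that 5 mice against 4 allow. Over all genes tested, 8.95% were lower and 7.24% higher without overlap between the genotypes.

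The tested members transcribed from the minus strand gave values that overlapped between the genotypes. Cyp2c68 had 647, 932, 896, 1509 and 426 normalized counts in ApcMin/+ mice and 1186, 630, 663 and 739 in ApcMin/+; p16cis/cis mice. The log2 difference was -0.06 (95% confidence interval -0.72 to 0.61, Benjamini-Hochberg adjusted p = 0.92 from limma), so a change of the size seen in Cyp2c55 or Cyp2c65 lay outside the interval. Its sign is not settled, since it changed to 0.28 once sex was a covariate and to 0.36 in females only. Cyp2c69 had 42.4, 125, 147, 247 and 30.6 against 120, 54.2, 64.6 and 67.4, with a log2 difference of -0.30 (95% confidence interval -1.46 to 0.86, Benjamini-Hochberg adjusted p = 0.731 from limma) that was 0.29 with sex as a covariate. Cyp2c67 ran from 2.85 to 15.3 in ApcMin/+ and from 7.83 to 15.2 in ApcMin/+; p16cis/cis mice. The log2 difference of Cyp2c67 was 0.70 (95% confidence interval -0.46 to 1.86), on 35 reads in all ApcMin/+ mice together and 31 in all ApcMin/+; p16cis/cis mice. Cyp2c40 had 17 reads in all ApcMin/+ mice together and 6 in all ApcMin/+; p16cis/cis mice, too few for a test.

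**Figure D1:**
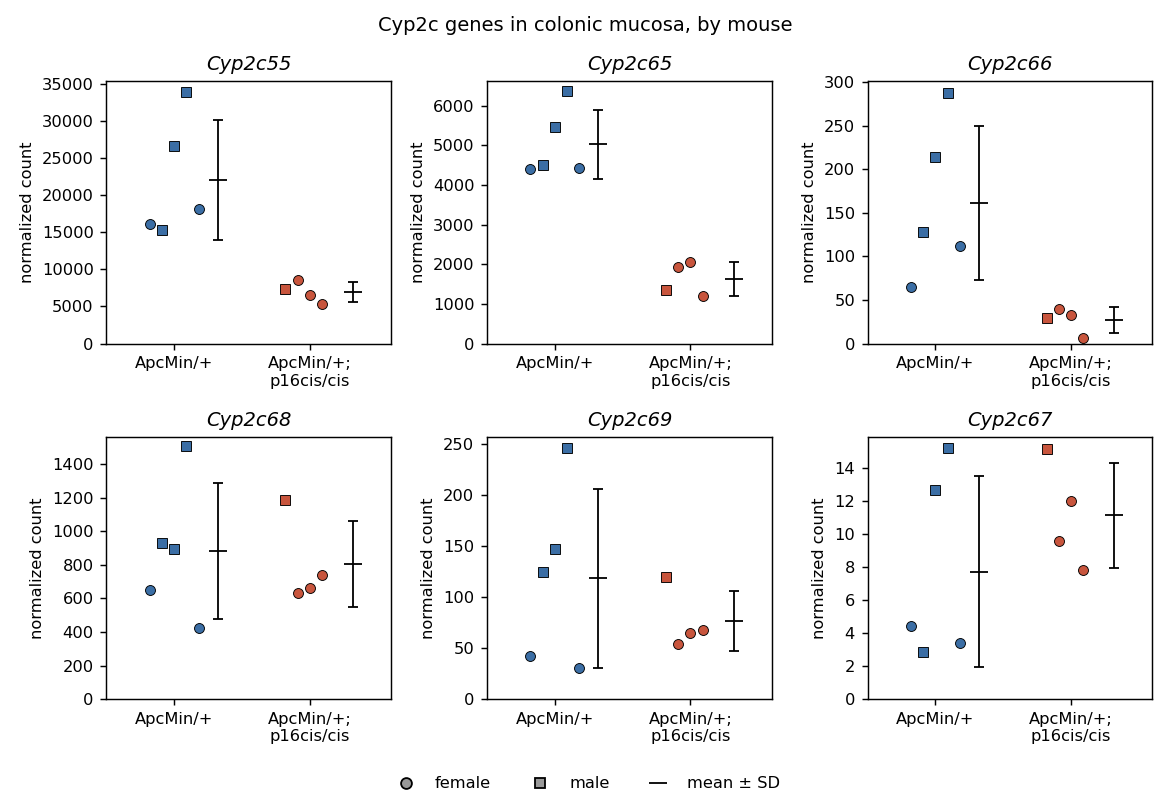
Normalized counts (linear axes from 0) of the 6 tested Cyp2c genes, with 1 point per mouse by genotype, circles for females, squares for males and a bar for the mean ± SD. In Cyp2c55, Cyp2c65 and Cyp2c66 all ApcMin/+; p16cis/cis mice lie below all ApcMin/+ mice, while Cyp2c68, Cyp2c69 and Cyp2c67 overlap, with males above females in Cyp2c68 and Cyp2c69.

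Because the members differed in their change, the composition of the family was described from the reads. All Cyp2c genes together took 0.154% ± 0.0442 (SD, n = 5) of the reads on genes in ApcMin/+ mice, a share that was 0.0455% ± 0.00912 (SD, n = 4) with p16cis/cis. Cyp2c55 gave most of these reads in both genotypes, 77.3% ± 3.03 and 72.8% ± 2.75, and Cyp2c65 gave 18.5% ± 2.75 and 17.2% ± 3.56. The share of Cyp2c68 was 1.84 to 4.43% in ApcMin/+ and 5.59 to 11.9% in ApcMin/+; p16cis/cis mice, without overlap.

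A ratio of a pair of genes within a mouse does not depend on how the library is scaled, apart from the 1 added to each normalized count. That addition matters most for low genes such as Cyp2c66. Of the 6 such ratios examined, all chosen after the values were seen, 3 compared a member that fell with one that did not. The mean log2 ratio of Cyp2c55 to Cyp2c68 was 4.69 ± 0.51 (SD, n = 5) in ApcMin/+ mice, against 3.13 ± 0.51 (SD, n = 4) with p16cis/cis. That of Cyp2c65 to Cyp2c68 was 2.62 ± 0.50 and 1.03 ± 0.71, and that of Cyp2c66 to Cyp2c69 was 0.65 ± 0.70 and -1.66 ± 1.24. In each of these 3 the genotypes did not overlap. Since the pairs were chosen for their values, these ratios describe the same difference in other units and carry no test.

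The other 3 ratios overlapped between the genotypes. The log2 ratio of Cyp2c65 to Cyp2c55 was -2.07 ± 0.27 (SD, n = 5) and -2.10 ± 0.32 (SD, n = 4), ranging from -2.41 to -1.77 and from -2.43 to -1.66. The ratio of Cyp2c66 to Cyp2c65 was -5.12 ± 0.62 and -6.08 ± 0.87, a difference of -0.96 that was -0.54 without ApcMin/+; p16cis/cis replicate 4. Cyp2c69 to Cyp2c68, a pair in which neither gene was called, gave -3.15 ± 0.63 and -3.40 ± 0.10.

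**Figure D2:**
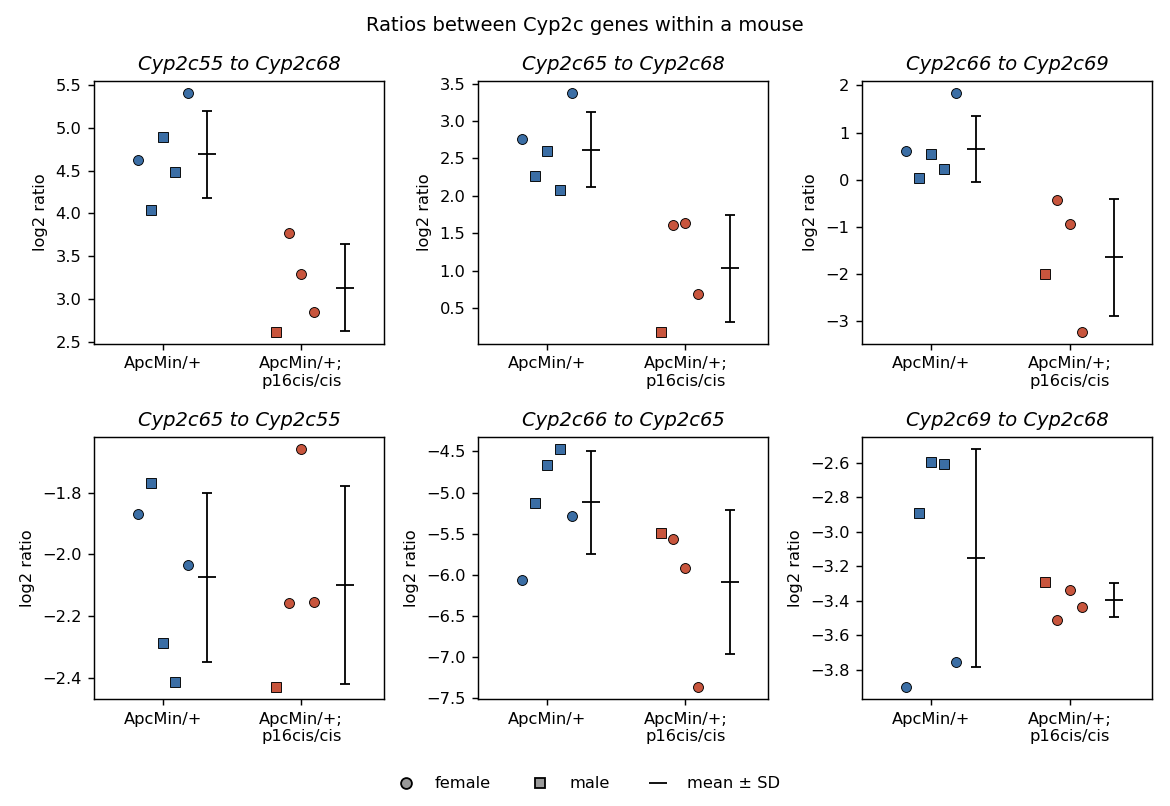
Log2 ratios of (normalized count + 1) between pairs of Cyp2c genes in the same mouse, with 1 point per mouse by genotype, circles for females, squares for males and a bar for the mean ± SD. The upper row pairs a gene that fell with one that did not, and its genotypes are apart, from 4.69 to 3.13 for Cyp2c55 to Cyp2c68, while in the lower row they overlap.

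Sex was unequal between the genotypes, so the difference between males and females was estimated with genotype as a covariate. Cyp2c68 and Cyp2c69 were higher in each of the 4 males than in each of the 5 females. Cyp2c68 was 896, 932, 1186 and 1509 in males and 426 to 739 in females, a log2 difference of 0.95 (standard error 0.19). Cyp2c69 was 120 to 247 in males and 30.6 to 67.4 in females, a log2 difference of 1.70 (standard error 0.31). Over all genes tested 0.812% were higher in males without overlap, while 0.0416% were called higher in males and 0.00694% in females. Neither gene passed adjustment over all genes (Benjamini-Hochberg adjusted p = 0.272 for Cyp2c68 and 0.204 for Cyp2c69 from limma), and they ranked 17th and 11th of 14410 genes by unadjusted p (0.000343 and 0.000156, limma). Since 43.3% of the 50-base windows of Cyp2c68 and 54.3% of those of Cyp2c69 occurred in another Cyp2c gene, the 2 values may share reads and are not independent.

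The 3 members that fell did not separate the sexes. The log2 difference between males and females was 0.35 (standard error 0.24) for Cyp2c55, 0.06 (standard error 0.19) for Cyp2c65 and 0.93 (standard error 0.51) for Cyp2c66, and each adjusted p was 0.992 (limma, Benjamini-Hochberg). With sex as a covariate all 3 stayed called, with log2 fold changes of -1.50, -1.62 and -2.28 between the genotypes (Benjamini-Hochberg adjusted p = 0.00825, 0.00424 and 0.0236 from limma). In the females alone, 2 against 3, Cyp2c55 and Cyp2c65 were called (-1.35 and -1.39) and Cyp2c66 was not (-1.997, Benjamini-Hochberg adjusted p = 0.119 from limma). When the share of mitochondrial reads, of whose variance genotype took 78.1%, was added to the fit, the log2 fold changes were -1.43, -1.68 and -1.69 without any call (limma, Benjamini-Hochberg adjusted p = 0.848 to 0.849). Unadjusted p in that fit was 0.0195 for Cyp2c55, 0.00133 for Cyp2c65 and 0.166 for Cyp2c66 (limma). The 3 members were called in each of the 9 fits that left out 1 mouse. The share of all genes called in the fits of this paragraph is not given here.

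**Figure D3:**
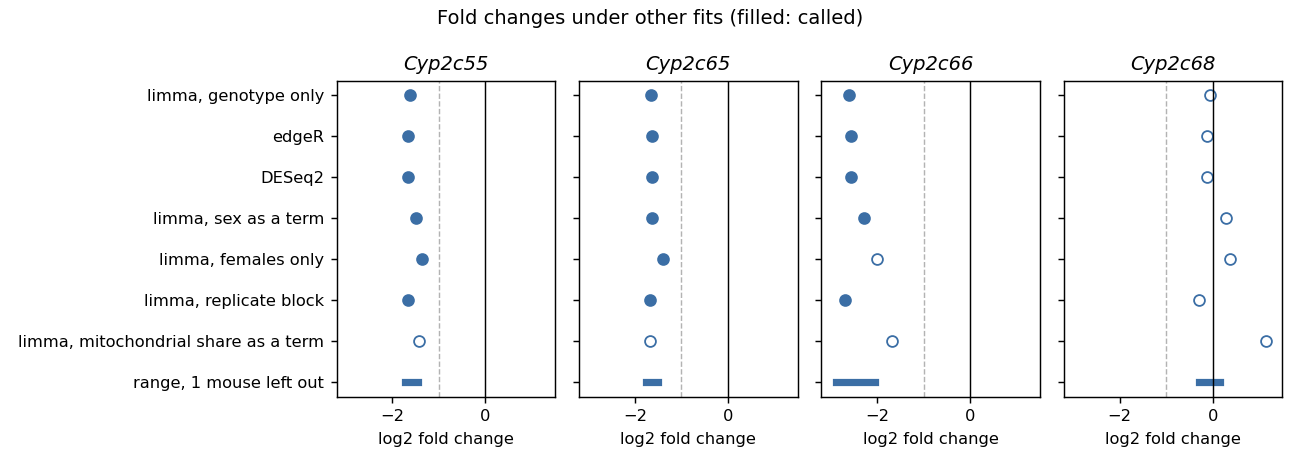
Log2 fold change between the genotypes (ApcMin/+; p16cis/cis minus ApcMin/+) of 4 Cyp2c genes under other tests and covariates, with filled points where a gene was called and a bar for the range over fits with 1 mouse left out. Cyp2c55, Cyp2c65 and Cyp2c66 stay below 0 in every fit shown, from -1.62, -1.64 and -2.61 with genotype alone, while Cyp2c68 lies on both sides of 0.

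The remaining Cyp2c genes of the table were low or at 0. Cyp2c44, which lies apart from the cluster from 44005022 to 44029208, had 28 reads in ApcMin/+ and 19 in ApcMin/+; p16cis/cis mice. Cyp2c70, the last gene of the cluster and known for bile acid hydroxylation in mice, had 16 and 8 reads, and the pseudogene Cyp2c52-ps next to Cyp2c55 had 18 and 2. Cyp2c37, Cyp2c50, Cyp2c54 and Cyp2c53-ps were listed at 0 in every mouse.

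The genes around the cluster were compared to see whether the fall went beyond the family. Of 21 neighbors outside it (10 protein-coding genes on each side and the microRNA gene Gm23800, annotated on the minus strand within the span of Cyp2c55 and listed at 0) 15 were tested and 0 were called by limma, edgeR or DESeq2. At an unadjusted p under 0.05 there were 4 lower and 1 higher in limma. Hells, a chromatin remodeler next to the cluster, overlapped between the genotypes (log2 fold change -0.45, standard error 0.35). On the other side Pdlim1 had 4128 ± 884 (SD, n = 5) and 3990 ± 459 (SD, n = 4) normalized counts, a log2 difference of -0.03 (standard error 0.15). With no threshold on the fold, 3 neighbors were lower and 1 higher at a Benjamini-Hochberg adjusted p under 0.05, where 8.75% of all genes tested were lower and 8.14% higher. These were Tbc1d12 (log2 fold change -0.85), Slc35g1 (-0.50) and Zfp518a (-0.55), which were lower, and Rbp4 (0.86), encoding the plasma retinol carrier, which was higher. Rbp4 was called, with a log2 fold change of 1.03, once the male ApcMin/+; p16cis/cis mouse, replicate 1, was left out. Without replicate 2 of that genotype it was 0.75 (adjusted p = 0.0528, limma), and without replicate 4 it was 0.73 (adjusted p = 0.0531, limma). An adjusted p under 0.05 held for Tbc1d12 in 9 of the 9 fits with 1 mouse left out, for Rbp4 in 7, for Slc35g1 in 5 and for Zfp518a in 4.

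**Figure D4:**
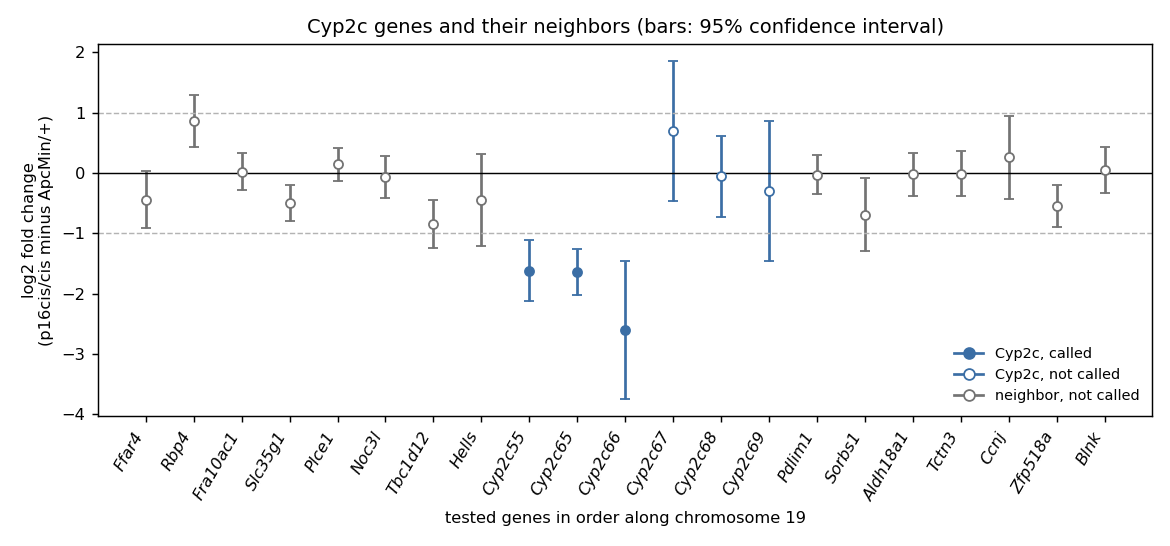
Log2 fold change between the genotypes with its 95% confidence interval (limma) for the tested genes in and around the Cyp2c cluster, in their order along chromosome 19, Cyp2c genes in blue and filled where called. The 3 called genes, Cyp2c55 (-1.62), Cyp2c65 (-1.64) and Cyp2c66 (-2.61), are next to each other in the order, and no neighbor lies past the dashed lines at a log2 fold change of 1 in either direction.

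The partners and competitors of the CYP2C enzymes were taken as 7 lists of 96 genes, of which 74 were tested. Of these 2 were called lower and 1 higher, where 1.64% and 1.83% of all genes tested were. At a Benjamini-Hochberg adjusted p under 0.05 with no fold threshold 12 were lower and 4 higher (limma), where 8.75% and 8.14% of all genes tested were. The median log2 fold change of the 74 was -0.13, against -0.004 for all genes tested. Among 6 genes for electron donors and other partners of P450 enzymes, Pgrmc1, not itself an electron donor, was lower (-0.45). Por, the reductase, named after its values were seen, was 4123 ± 1556 (SD, n = 5) and 2379 ± 986 (SD, n = 4) without passing (log2 difference -0.79, Benjamini-Hochberg adjusted p = 0.0663 from limma). Of 8 genes of heme synthesis Ppox, which makes protoporphyrin, was higher (0.77) and Fech, which inserts the iron, was lower (-0.46).

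Among the genes that handle the lipid products, Ephx2, the soluble epoxide hydrolase that converts epoxyeicosatrienoic acids to diols, was lower without overlap. Its normalized counts were 557, 703, 822, 1471 and 527 in ApcMin/+ and 414, 424, 384.7 and 465 in ApcMin/+; p16cis/cis mice (log2 fold change -0.85, Benjamini-Hochberg adjusted p = 0.037 from limma). With 1 mouse left out the adjusted p of Ephx2 ran up to 0.0837 (limma) and stayed under 0.05 in 3 of 9 fits, with a log2 fold change of -0.98 to -0.61. Ephx1, the microsomal epoxide hydrolase, was higher (0.41). Of 9 tested genes among the other P450 genes that act on arachidonic acid, Cyp4f14, a leukotriene B hydroxylase, was called lower (-1.10) and Cyp2j6 (-0.49) and Cyp4f40 (-0.43) were lower by adjusted p alone.

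Acsl3 (-0.70) and Lpcat3 (-0.65), which activate fatty acids and return them to phospholipids, were lower. In the competing cyclooxygenase and lipoxygenase list Hpgd, which breaks down prostaglandins, was lower without overlap, at 2511 to 2929 with p16cis/cis against 4324 to 6125 in ApcMin/+ mice (log2 fold change -0.84, Benjamini-Hochberg adjusted p = 0.00235 from limma). Ltc4s, which makes leukotriene C, was called higher (1.13, 33.2 ± 8.23 and 79.1 ± 37.3), and its adjusted p ran from 0.0282 to 0.115 with 1 mouse left out.

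Of 24 tested regulators of Cyp2c transcription, Ppara, the fatty acid receptor, was called lower (-1.15), and Nr3c1, the glucocorticoid receptor, was lower (-0.75), with 1602 to 2246 normalized counts in ApcMin/+ and 854 to 1254 in ApcMin/+; p16cis/cis mice. Ppargc1a, a coactivator, was lower (-0.59). The xenobiotic receptor Nr1i2, named after its values were seen, was 1727 ± 286 (SD, n = 5) and 1782 ± 91.6 (SD, n = 4), a log2 difference of 0.06, and Hnf4a differed by -0.003. Of the list genes named, Ppox, Acsl3, Hpgd, Nr3c1, Cyp4f14 and Ppara kept an adjusted p under 0.05 in all 9 fits with 1 mouse left out (limma). Cyp2j6 and Lpcat3 did so in 6 of 9, Fech, Ephx1, Ltc4s and Ppargc1a in 5, and Pgrmc1, Ephx2 and Cyp4f40 in 3. Without ApcMin/+; p16cis/cis replicate 1, Cyp4f14 had a log2 fold change of -0.88 and was not called, and without replicate 4 of that genotype Ppara had -0.93 and was not called.

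**Figure D5:**
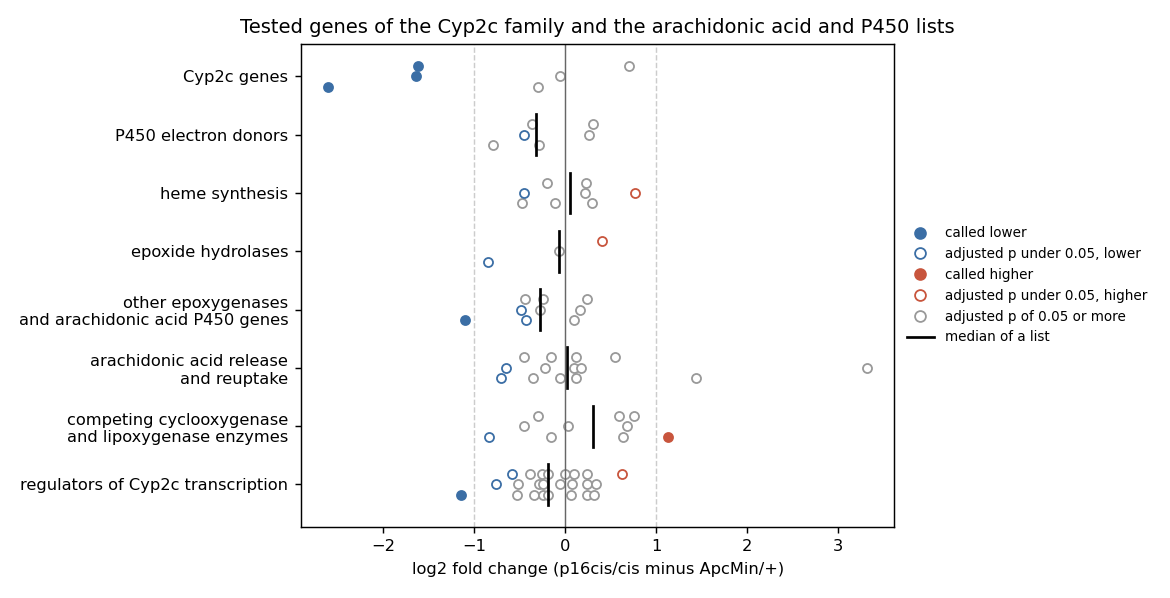
Log2 fold change between the genotypes of the tested Cyp2c genes and of the tested genes of 7 lists, with 1 point per gene, a black line for the median of a list, color for an adjusted p under 0.05 (limma) and filled points where the change was also over 2-fold. Filled points are Cyp2c55, Cyp2c65, Cyp2c66, Cyp4f14 (-1.10) and Ppara (-1.15) to the left and Ltc4s (1.13) to the right.

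Genes whose level followed that of Cyp2c55 from mouse to mouse were listed by the Pearson correlation of log2(normalized count + 1) over the 9 mice, which share the contrast of genotype. Outside the family the highest were Gramd3 (r = 0.993), Chac2 (0.992), RP23-424C4.5 (0.991), Ggt1 (0.982), which cleaves glutathione, and Slc35d1 (0.982). Of these Ggt1 was called lower, with 200 ± 88.8 (SD, n = 5) and 35.7 ± 12.0 (SD, n = 4) normalized counts. Cyp2c65 had r = 0.956 and Cyp2c66 had r = 0.944, while Cyp2c68 had r = 0.27 and Cyp2c67 had r = -0.09. With the genotype means removed the highest were Rusc2 (0.971), Chac2 (0.970), Tmem252 (0.967), RP23-424C4.5 (0.965) and Gramd3 (0.959). On that scale the values were 0.868 for Cyp2c67, 0.81 for Cyp2c66, 0.716 for Cyp2c65, 0.59 for Cyp2c69 and 0.524 for Cyp2c68. The value of Cyp2c67 rests on only 3 to 13 reads per mouse. These values describe 9 mice and carry no test.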

How the data were processed

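RNA-seq libraries of colonic mucosa from 9 mice were used. The study sequenced on a BGISEQ-500 instrument, mapped with BOWTIE2, estimated gene levels with RSEM and tested with DESeq2; versions, genome build and read length are not given in the sources used here. The values the authors deposited are a signal, namely normalized counts, scaled by 1 size factor per library. Every positive value was divided by the smallest of its column, and 100% came out whole within 0.01 reads. RSEM can split reads between similar genes.

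Groups came from the genotype labels. The test was limma 3.58.1 (R 4.3.3, trended variances) on log2(normalized count + 1) over 14410 genes with at least 10 in at least 4 mice, genotype as the only term, with Benjamini-Hochberg adjustment. A gene was called at an adjusted p under 0.05 and a fold change over 2. Single genes were tested by exact permutation over all splits of the mice. Alternatives were count tests of the recovered whole reads (edgeR 4.0.16, DESeq2 1.42.0), other filters, pseudocounts, scalings, covariates, a replicate block, females only and each mouse left out. The procedure was tested on simulated counts.

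The members, gene lists and tests were chosen with earlier results of these data known. Named were all Cyp2c genes, the chromosome 19 neighbors, list genes that were called or had the largest changes at an adjusted p under 0.05, and the 5 genes most like Cyp2c55 on each of 2 scales; others are marked. The values of 1 list gene are not reported here. Coordinates, exon lengths and coding sequences are from GENCODE M21 (GRCm38), in which 54079 of 54146 identifiers matched without regard to version. Promoters are from RefSeq. Nothing states separate cages or litters, so p-values measure the spread between these mice.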

Additional observations from a re-analysis of the deposited data

How the results depend on the processing

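Cyp2c55, Cyp2c65 and Cyp2c66 kept their direction under every alternative run. Of the members 3 stayed called lower under both other pseudocounts, without a filter, with TMM scaling, with size factors from nuclear genes, in edgeR and DESeq2, with sex as a covariate and in all 9 fits with 1 mouse left out. The number was 2 in females only and 2 with at least 10 in all 9 mice, where Cyp2c66 was not tested, 1 with Bonferroni adjustment, and 0 with the mitochondrial share as a covariate. The share of all genes called is given above only for limma with genotype alone, edgeR, DESeq2 and, in the lower direction, Bonferroni adjustment. Counts under other settings, here and below, are therefore not read against such a share. With Bonferroni adjustment Cyp2c55 (-1.62, adjusted p = 0.236 from limma) and Cyp2c66 (-2.61) were not called. With the mitochondrial share as a covariate the log2 fold changes were -1.43 for Cyp2c55, -1.68 for Cyp2c65 and -1.69 for Cyp2c66, and in females only Cyp2c66 had -1.997, none of them called. The cause was not tested.

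Cyp2c68 reversed to 0.28 with sex as a covariate, 1.14 with the mitochondrial share and 0.36 in females only, and ranged from -0.29 to 0.17 with 1 mouse left out. Cyp2c69 reversed to 0.29, 1.96 and 0.76 under the same 3 settings and ranged from -0.68 to 0.0571. Lpcat3 was 0.0068 with the mitochondrial share. The sex difference of Cyp2c65 ranged from -0.0392 to 0.29. The change in the log2 ratio of Cyp2c65 to Cyp2c55, with alternatives added after seeing the data, ranged from -0.17 to 0.0854, and that of Cyp2c66 to Cyp2c65 from -1.20 to -0.54.

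Neighbors called lower were 3 and higher 1 with no fold threshold, 1 was higher in females only, and 0 to 1 were higher with 1 mouse left out. For the 7 lists, 2 genes were called lower and 1 higher. Called lower were 0 with the mitochondrial share, in females only and with Bonferroni adjustment, 12 with no fold threshold, and 1 to 3 with 1 mouse left out. Called higher were 3 with at least 10 in all 9 mice, 2 in edgeR and in DESeq2, 2 with the replicate block, 4 with no fold threshold, 0 with sex or the mitochondrial share as a covariate and with Bonferroni adjustment, and 0 to 2 with 1 mouse left out.

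The same replicate numbers name different mice. Their deviations from the group means had a mean correlation of 0.02 (-0.18 to 0.14), so the replicate number was no pairing. With it as a replicate block, a fit to which ApcMin/+ replicate 5 adds nothing since no other mouse shares its number, 3 members were called lower as before, with Cyp2c55 at -1.67 and Cyp2c65 at -1.69, and the list genes called higher went from 1 to 2.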
